A study of Mus musculus with 26 samples.

Results

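Mouse retina gave 6 libraries of immunoprecipitated (IP) RNA, enriched by the authors for the RNA of astrocytes, and these fell into 2 sets by their level of Pax8, the gene the study put forward as a marker of retinal astrocytes. The rule set the line at 100 CPM (the gene's count over the library total, scaled to counts per 1000000). Pax8 (ENSMUSG00000026976, mm10 chromosome 2, 24420560 to 24475599, minus strand) stood at 299.5, 337.9 and 410.4 CPM in IP replicates 2, 3 and 4, which are called Pax8-high here. It stood at 33.97, 45.48 and 44.48 CPM in IP replicates 1, 5 and 6, called Pax8-low. The libraries nearest to the line were thus replicate 2 at 299.5 CPM on the upper side and replicate 5 at 45.48 CPM on the lower side. Pax8 sorted the libraries and is no result. The sets hold 3 and 3 of the 26 libraries of the series.

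All 6 libraries are labelled alike. They are of untreated mice at day 0, with poly(A) RNA from the retina of freshly removed eyes, amplified with an ultra-low input Smart-Seq kit, and all belong to sequencing batch 2. Beside them stand 6 retinal input libraries, which are numbered 1 to 6 and did not go through the IP. IP libraries of astrocytes from the optic nerve head (ONH, 7) and from the myelinated optic nerve proper (ONP, 7) stand there too. The inputs and replicate 7 of ONH and of ONP are also of batch 2. Replicates 1 to 6 of ONH and of ONP are of batch 1. Between these and the retinal libraries, tissue and batch cannot be told apart. The labels give no genotype, strain or age, name no transgene, and do not say whether libraries are separate animals, so errors measure the spread between these libraries. The sets were made from a readout of the libraries themselves. Differences between them are therefore descriptions with a standard error (SE), and no p-value is given for them.

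Retinal astrocytes are born outside the retina, enter it from the optic nerve head and spread over the nerve fibre layer, where they form the lattice that the first vessels follow. Ganglion cell axons run alongside them and release the PDGF that draws astrocytes in through their receptor Pdgfra. Müller glia, the other macroglia of the retina, are made inside it and span its whole depth. Pax8 is a paired-box transcription factor best known from thyroid and kidney, and Pax2, its close relative, marks the optic stalk from which these astrocytes descend.

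The 3 Pax8-high libraries held 18428043 to 24235976 counts, the 3 Pax8-low libraries 14703195 to 24966236 and the inputs 11164619 to 18417001. Genes with at least 1 count numbered 17985 to 21247 in the Pax8-high and 20110 to 20619 in the Pax8-low libraries. The log2 CPM of the 6 libraries correlated over genes at 0.908 to 0.937 within the Pax8-high set, 0.961 to 0.981 within the Pax8-low set and 0.706 to 0.850 between them, as a description over genes, which are not independent. Mitochondrially encoded transcripts took 1.03%, 2.12% and 2.23% of counts in the Pax8-high libraries and 0.384%, 0.155% and 0.259% in the Pax8-low libraries. Their part in the differences described here was not tested.

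Across all genes, the Pax8-high libraries were richer in astrocyte transcripts and poorer in those of ganglion and amacrine cells than the Pax8-low libraries. Of 15511 genes tested, edgeR's quasi-likelihood test at a Benjamini-Hochberg adjusted p under 0.05 marked 2186 as higher in the Pax8-high set (14.1%) and 1670 as lower (10.8%). In 3376 genes (21.8%) all 3 Pax8-high libraries lay above all 3 Pax8-low libraries, and in 3709 (23.9%) all lay below. The rule chose libraries on this same contrast, so nothing is read from these counts, and those given below for each gene list describe the same libraries. The count of genes marked higher was 1433 without IP replicate 1, 1180 without replicate 5 and 1439 without replicate 6, and of genes marked lower 1027, 773 and 909. The median log2 fold change over all genes tested was -0.02. In bulk RNA, fewer cells of a type and less RNA per cell cannot be told apart.

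**Figure D1:**
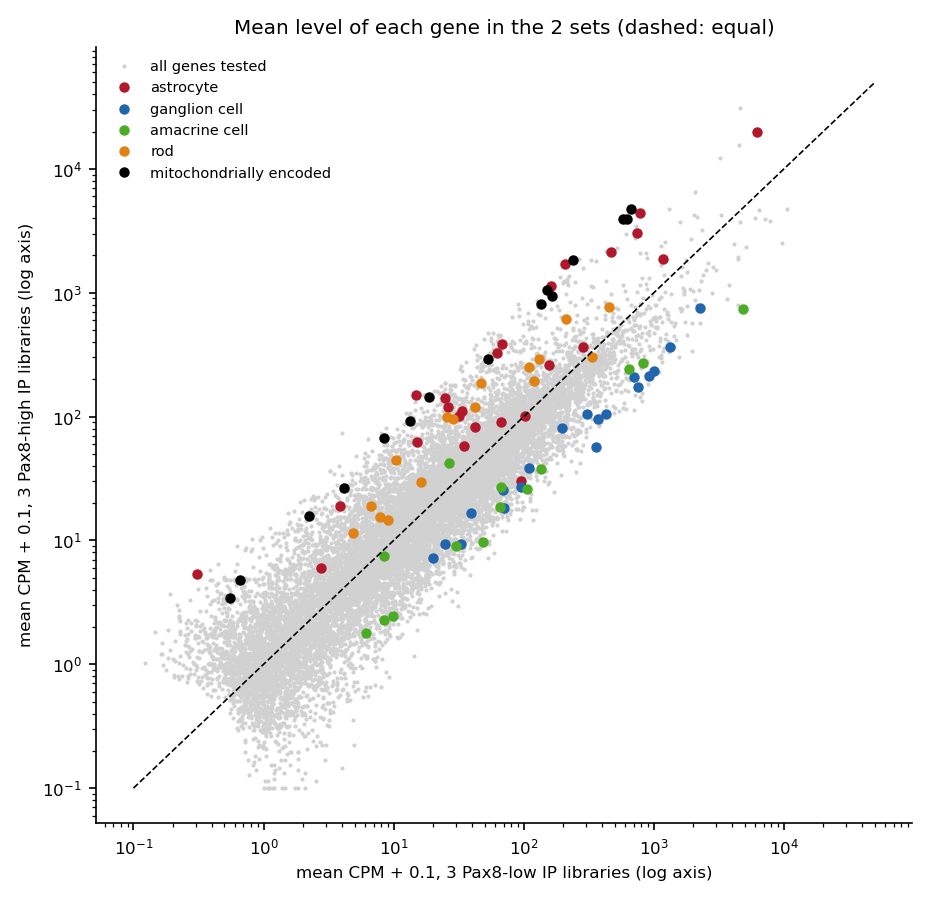
Mean level of each gene tested in the 3 Pax8-low libraries (x) and the 3 Pax8-high libraries (y), in CPM plus 0.1 on log axes, with the dashed line marking equal levels. Astrocyte genes lie mostly above the line (24 of 25 estimates positive) and all 19 ganglion cell genes below it.

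Genes that astrocytes share across the nervous system were higher in the Pax8-high libraries almost throughout. Of 28 listed genes, 25 passed the count filter, and 19 of these were marked higher and 0 lower, with a median log2 fold change of 2.07. Their summed level was 28858, 37679 and 43172 CPM in the Pax8-high libraries and 9588, 10103 and 12765 CPM in the Pax8-low libraries. All 3 Pax8-high sums lay inside the range of the ONH (11671 to 41596 CPM) and ONP libraries (19325 to 52106 CPM) combined. Different genes carried the sums in retina and optic nerve. Aldoc stood at 5699 CPM or more in every retinal IP library and at 2977 CPM or less in every ONH and ONP library. Gfap stood at 406.1 to 4098 CPM in the retinal IP libraries. Its median was 9846 CPM in ONH, and every ONP library held at least 6348 CPM. A sum inside the optic nerve range therefore does not show a like mix of genes. The inputs summed to 5269 to 9119 CPM. Of the Pax8-low sums, that of replicate 6 lay inside the ONH range, and those of replicates 1 and 5 lay between the inputs and the ONH libraries. In the same libraries the ganglion cell list summed to 3368, 2628 and 1594 CPM against 9341, 8836 and 9134 CPM, and its part in the astrocyte values was not tested.

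S100b (ENSMUSG00000033208, mm10 chromosome 10, 76253853 to 76261159, plus strand), a calcium-binding protein of astrocytes, differed widely with little spread. It stood at 1620, 1798 and 1707 CPM in the Pax8-high libraries and at 203.2, 195 and 228.2 CPM in the Pax8-low libraries (log2 fold change 3.08, SE 0.16). The Pax8-low libraries were no higher than the inputs, which ran from 110.6 to 519.1 CPM. Gfap (ENSMUSG00000020932, mm10 chromosome 11, 102887336 to 102900912, minus strand), the main intermediate filament of astrocytes, stood at 3322, 1707 and 4098 CPM against 406.1, 849.8 and 970.6 CPM (2.07, SE 0.42). The sets did not overlap, but Gfap varied more than S100b within each of them.

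Slc1a3, the astrocyte glutamate transporter, stood at 1936, 1702 and 2705 CPM in the Pax8-high and 415.2, 330.3 and 662.2 CPM in the Pax8-low libraries (2.22, SE 0.31). Sox9, a glial transcription factor, stood at 350, 274.3 and 536.5 CPM against 58.44, 71.32 and 73.52 CPM (2.57, SE 0.28). Gja1, the gap junction protein connexin 43, stood at 122.4, 135.1 and 168.8 CPM against 17.54, 29.17 and 27.89 CPM (2.57, SE 0.27). In all 3 genes the lowest Pax8-high library was above the highest Pax8-low library. Aldh1l1, a folate enzyme used to mark astrocytes, differed by 2.22 (SE 0.34) and Cbs, which makes cystathionine, by 3.38 (SE 0.29).

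Aqp4, the water channel of astrocyte and Müller endfeet, did not go with the rest. It stood at 57.35, 15.93 and 17.64 CPM in the Pax8-high and 84.35, 26.4 and 174.9 CPM in the Pax8-low libraries, and the sets overlapped (-1.65, SE 0.70, not marked). It was the 1 astrocyte gene of 25 with a negative estimate, and every ONH (197.2 to 886.1 CPM) and ONP library (496.5 to 1540 CPM) held more of it than any retinal IP library.

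**Figure D2:**
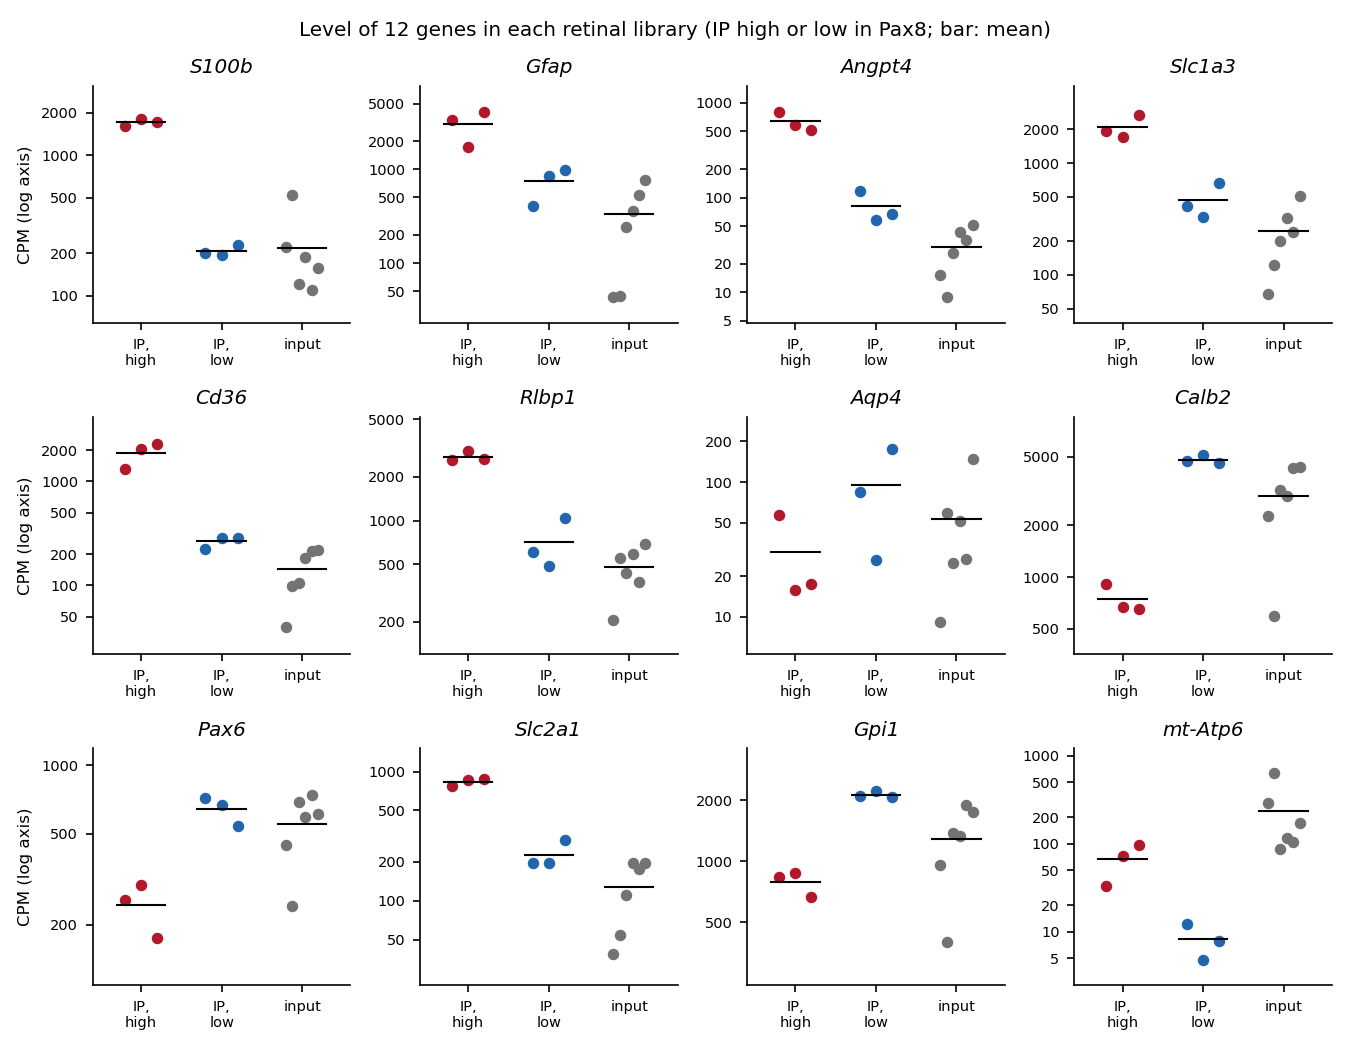
Level of 12 genes in CPM (log axis) in each of the 3 Pax8-high IP, 3 Pax8-low IP and 6 input libraries of the retina, one point per library, with bars at the mean. S100b, Angpt4 and Cd36 separate the IP sets by a wide gap, Calb2, Pax6 and Gpi1 separate them the other way, and Aqp4 overlaps.

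Genes known from retinal astrocytes and the optic stalk differed as much. Of 13 tested, 8 were marked higher and 1 lower, with a median of 2.10, and the list summed to 2646 to 3264 CPM in the Pax8-high and 608 to 716 CPM in the Pax8-low libraries. Angpt4 (ENSMUSG00000027460, mm10 chromosome 2, 151911210 to 151945337, plus strand), a ligand of the vascular receptor Tie2, stood at 803.2, 590.9 and 521.1 CPM against 118.2, 57.66 and 66.86 CPM (3.02, SE 0.29). No ONH or ONP library, of either batch, exceeded 2.613 CPM of it, so the Pax8-low libraries, too, held it far above the optic nerve libraries. Pdgfra stood at 1374, 1179 and 1527 CPM against 169.9, 247.8 and 244.1 CPM (2.67, SE 0.22), and Vit, a matrix protein, differed by 2.48 (SE 0.24). Pax2 was sparse in every library, at 6.478, 6.125 and 13.35 CPM against 0.601, 2.338 and 2.04 CPM (2.45, SE 0.62). Vim, an intermediate filament of immature and activated glia, differed by 1.86 (SE 0.24). The member marked lower was Igf1, a growth factor, at 22.82, 18.43 and 14.43 CPM against 32.16, 39.32 and 37.88 CPM (-0.94, SE 0.22).

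The secreted factors and receptors by which astrocytes deal with vessels followed. Of 17 genes of PDGF signalling, hypoxia and angiogenesis, 12 had positive estimates, and 10 were marked higher and 0 lower (median 2.00). The same count of 10 higher was reached when any 1 of the 6 libraries was left out. In 2 of the 17, all Pax8-low libraries lay above all Pax8-high libraries. Apln, a ligand that promotes vessel growth, stood at 71.55, 80.96 and 91.17 CPM against 12.86, 5.046 and 7.821 CPM (3.30, SE 0.35). Ednrb, the endothelin B receptor, stood at 373.7, 371.1 and 619 CPM against 51.67, 77.17 and 67.33 CPM (2.85, SE 0.29), and Angpt2, a further Tie2 ligand, at 32.39, 39.31 and 47.1 CPM against 4.887, 6.769 and 5.781 CPM (2.83, SE 0.28). Epo, the hormone erythropoietin that hypoxia induces, was among the largest differences although sparse, at 16.09, 19.18 and 14 CPM against 1.402, 1.354 and 1.564 CPM (3.56, SE 0.31). Of 14 listed endothelial cell markers, 9 passed the count filter, and no direction is read from so few. Of these, 0 were marked higher and 1 lower, beside 14.1% and 10.8% of all genes tested. That 1 was Egfl7, a protein secreted by endothelium, at 6.684, 7.031 and 3.69 CPM against 15.22, 15.94 and 18.7 CPM (-1.48, SE 0.32).

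Rgs5, a regulator of G-protein signalling that is widely used to mark pericytes, stood at 943.1, 755.1 and 891.1 CPM against 130.1, 128.2 and 118.6 CPM (2.83, SE 0.15). It was the only 1 of 12 pericyte and smooth muscle genes marked, and 7 of the 12 did not pass the count filter. Of the 5 tested, 4 had positive estimates (median 2.16). The list summed to 954.1, 756.6 and 910.7 CPM in the Pax8-high libraries, nearly all of it Rgs5. The Pax8-low libraries held Rgs5 at the upper end of the inputs (38.54 to 131.2 CPM) and above every ONH library (7.021 to 92.61 CPM).

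Glial transcription factors were higher together. Of 18 tested, 14 were marked higher and 1 lower (median 2.04), with 13 to 14 higher when any 1 library was left out. Id1 differed by 2.98 (SE 0.42), Id2 by 2.83 (SE 0.22) and Id3 by 2.84 (SE 0.24), all 3 being inhibitors of bHLH factors that BMP signalling induces. Id3 itself stood at 1014, 1201 and 1155 CPM against 118.8, 195.2 and 174.1 CPM. The 1 marked lower was Rorb, a nuclear receptor of photoreceptor and amacrine development, at 50.42, 68.98 and 68.21 CPM against 140.5, 142.3 and 111.7 CPM (-1.01, SE 0.21).

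Eye-field transcription factors, which pattern the early retina, were split. Of 16 tested, 6 were marked higher and 2 lower (median 0.18), with 3 and 1 without IP replicate 1, 5 or 6 and 4 and 1 without replicate 4. Rax, which Müller glia keep after development, stood at 144.5, 216.1 and 230.1 CPM against 23.07, 39.26 and 42.92 CPM (2.54, SE 0.32), and Otx1 at 31.28, 21.79 and 50.03 CPM against 2.443, 4.985 and 2.72 CPM (3.40, SE 0.44). Pax6, which amacrine and ganglion cells keep, went the other way, at 257.8, 299.3 and 175.5 CPM against 718.7, 667.6 and 540.5 CPM (-1.35, SE 0.21). The paired-box genes Pax2 and Pax6 thus separated the same 6 libraries in opposite directions.

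Müller glia genes were divided. Of 14 tested, 7 were marked higher and 0 lower (median 0.66), and the list summed to 44718 to 47310 CPM in the Pax8-high and 13212 to 21154 CPM in the Pax8-low libraries. Rlbp1, the retinaldehyde-binding protein of Müller glia, stood at 2594, 3015 and 2676 CPM against 605, 489.8 and 1042 CPM (2.00, SE 0.29). Apoe, a lipid carrier that astrocytes also make, differed by 1.84 (SE 0.22), Prdx6, an antioxidant enzyme, by 2.29 (SE 0.21), and Dbi, which binds acyl-CoA, by 2.38 (SE 0.20). Glul, glutamine synthetase, stood at 3954, 4537 and 4141 CPM against 1813, 1753 and 2551 CPM (1.09, SE 0.20). The other 7 were not marked. They included Crym, a thyroid hormone-binding protein, at 61.11, 54.38 and 51.88 CPM against 73.66, 74.52 and 158.5 CPM (-0.84, SE 0.32). In Crym the Pax8-low libraries lay above the Pax8-high libraries without overlap. The markers of Müller glia therefore did not share 1 direction, and what part these cells have in either set was not tested.

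Ganglion cell genes, the markers of the neurons whose axons retinal astrocytes ensheath, were lower in the Pax8-high libraries without exception among their estimates. Of 20 listed genes, 19 were tested and 17 marked lower, with a median of -1.77. Chrnb3, a nicotinic receptor subunit, stood at 86.94, 36.11 and 45.69 CPM in the Pax8-high and 322.4, 379.3 and 377.5 CPM in the Pax8-low libraries (-2.65, SE 0.30), and its partner subunit Chrna6 at 216, 197.2 and 109.8 CPM against 790.9, 689.4 and 788.9 CPM (-2.08, SE 0.24). Uchl1, a ubiquitin hydrolase of neurons, stood at 218.6, 281.2 and 196.2 CPM against 952.5, 1036 and 1014 CPM (-2.06, SE 0.18). The Pax8-low values of Uchl1 lay within the range of the inputs (470.6 to 1072 CPM), and the Pax8-high values under it. Nefm, a neurofilament subunit, differed by -1.75 (SE 0.40), Slc17a6, the vesicular glutamate transporter of ganglion cells, by -1.93 (SE 0.30) and Thy1, a surface glycoprotein, by -1.92 (SE 0.32).

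Amacrine cell genes gave the same picture. Of 14 tested, 11 were marked lower and 0 higher (median -1.79), and their sum was 1782, 1430 and 1119 CPM against 7008, 7175 and 6206 CPM. Calb2 (ENSMUSG00000003657, mm10 chromosome 8, 110137502 to 110168210, minus strand), the calcium buffer calretinin, stood at 915.2, 667.2 and 650.7 CPM against 4749, 5106 and 4624 CPM (-2.66, SE 0.16). All 3 Pax8-low libraries were above the highest input, 4361 CPM. Slc5a7, the choline transporter of starburst amacrine cells, differed by -2.32 (SE 0.34), and Slc18a3, which loads acetylcholine into vesicles, stood at 26.04, 14.49 and 11.78 CPM against 112.9, 128.9 and 128.6 CPM (-2.80, SE 0.28).

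Genes of synaptic transmission were lower too, with 14 of 19 marked lower and 0 higher (median -1.73). The vesicle proteins synapsin (Syn1) and synaptophysin (Syp) differed by -2.37 (SE 0.35) and -2.28 (SE 0.25). Syp stood at 266.1, 153.9 and 124.9 CPM against 839.7, 882.5 and 959.8 CPM, with no overlap. Among the largest differences in this direction were the neuronal pentraxins Nptx1 (-2.83, SE 0.47) and Nptx2 (-2.99, SE 0.47), which cluster glutamate receptors. Pomc, the precursor of melanocortin and opioid peptides, stood at 3.59, 2.983 and 2.768 CPM against 29.24, 26.22 and 28.09 CPM (-3.12, SE 0.24), and Gbx2, a homeobox factor of some amacrine cells, differed by -3.03 (SE 0.55). Smoc1, a secreted calcium-binding matrix protein, differed by -2.89 (SE 0.55).

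Photoreceptor genes did not sort by set in the same way. Of 16 rod genes, 7 were marked higher and 0 lower (median 1.31). In 4 of the 16, all Pax8-high libraries lay above all Pax8-low libraries, as they did in 21.8% of all genes tested. The count of rod genes marked higher was 14 without IP replicate 2, 1 without replicate 6 and 0 without replicate 1, 3, 4 or 5. The rod list summed to 1384, 3864 and 3927 CPM in the Pax8-high and 1594, 1189 and 1892 CPM in the Pax8-low libraries, so that IP replicate 2 sat among the Pax8-low libraries. Rp1, a protein of the photoreceptor axoneme, stood at 14.61, 55.34 and 63.82 CPM against 12.58, 5.354 and 13.13 CPM (2.18, SE 0.59), with replicate 2 close to the Pax8-low libraries. Pde6b, the rod phosphodiesterase, and Gngt1, the rod transducin gamma subunit, differed by 1.59 (SE 0.40) and 2.05 (SE 0.53). None of 11 cone genes was marked, and 4 were marked higher without IP replicate 2.

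**Figure D3:**
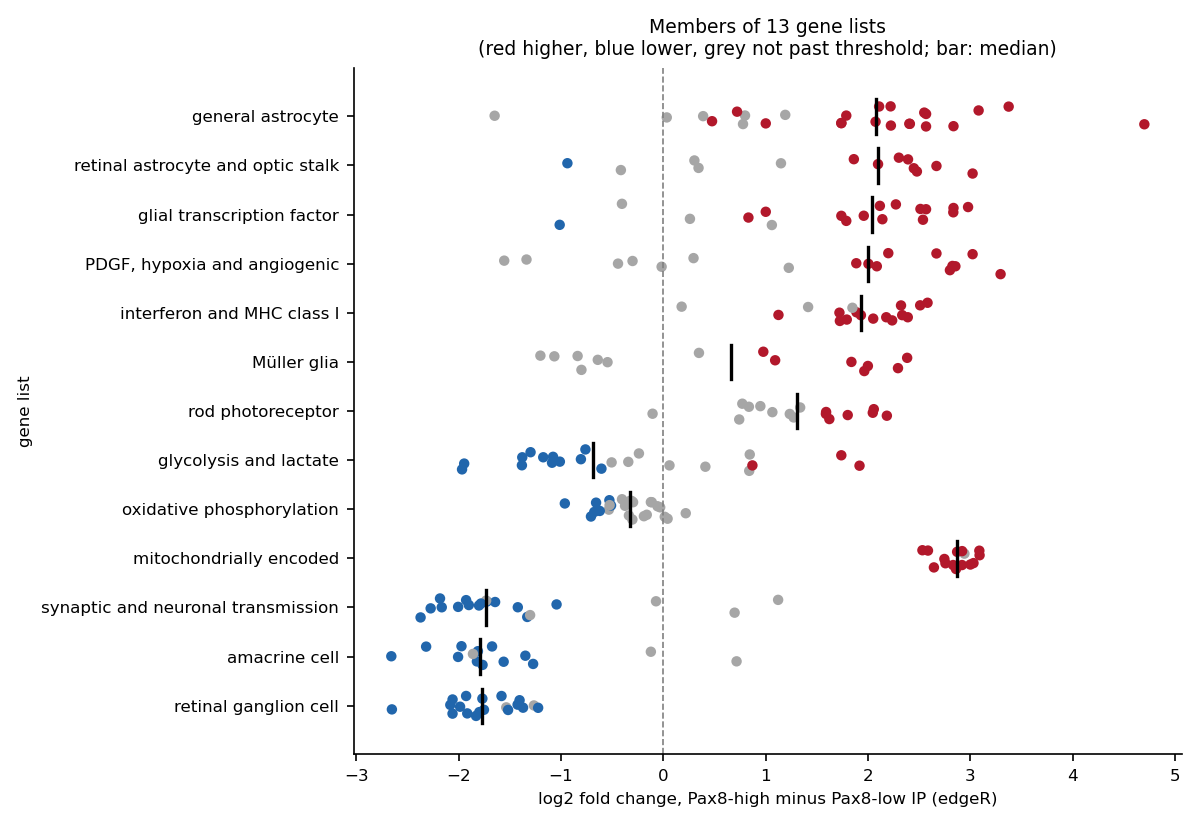
Log2 fold change of each tested member of 13 gene lists between the Pax8-high and Pax8-low IP libraries, red where marked higher, blue where marked lower and grey otherwise, with a bar at the median. The interferon list lies to the right, and the astrocyte and vascular lists lie mostly there (12 of 17 estimates positive in the vascular list). The ganglion cell list lies to the left, the amacrine and synaptic lists mostly so, and glycolysis and Müller glia lists on both sides of 0.

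Genes of the interferon response and of MHC class I, the molecules that present antigen to T cells, formed 1 of the most uniform lists. All 17 had positive estimates, and 14 were marked higher and 0 lower (median 1.93). B2m, the light chain of MHC class I, stood at 288.7, 307.5 and 337.7 CPM against 53.59, 64.55 and 66.45 CPM (2.39, SE 0.18). Psmb9, an immunoproteasome subunit, differed by 2.58 (SE 0.29) and Irf7, an interferon regulatory factor, by 2.51 (SE 0.37). H2-Q10, a secreted class I molecule, had the largest difference named here, at 65.11, 48.1 and 105.9 CPM against 2.363, 4.246 and 5.169 CPM (4.28, SE 0.44). H2-Q10 belongs to a family of near-identical genes among which the authors' counting could divide reads, so its value is uncertain. Microglia and macrophage genes mark cells that also make such transcripts, and their part in these values was not tested. Their list summed to 151.2 to 221.8 CPM against 223.8 to 275.6 CPM. Of its 14 genes, 1 was marked higher and 1 lower (1 and 6 without IP replicate 2), beside 14.1% and 10.8% of all genes tested. The 1 marked higher was the purine receptor P2ry12 (1.42, SE 0.37) and the 1 marked lower the lysosomal protease Ctss (-1.27, SE 0.28).

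Genes of reactive glia and complement had 7 of 14 marked higher and 0 lower (median 1.79). Serpina3n, a protease inhibitor of reactive astrocytes, stood at 127.6, 34.57 and 101.6 CPM against 16.54, 16.43 and 24.14 CPM (2.24, SE 0.44). Cp, the copper-binding ferroxidase ceruloplasmin, differed by 1.76 (SE 0.29). Gstm1, a glutathione transferase, stood at 517.2, 578.8 and 570.5 CPM against 81.15, 132.1 and 108.7 CPM (2.42, SE 0.22), as 1 of 10 metallothionein, iron and antioxidant genes marked higher among 18.

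Energy metabolism was divided by gene. Of 22 glycolysis and lactate genes, 3 were marked higher and 12 lower (median -0.68). Aldoc, the aldolase of astrocytes, stood at 13087, 23065 and 23493 CPM against 5699, 5918 and 7028 CPM (1.74, SE 0.27), and Slc2a1, the glucose transporter Glut1, at 768.9, 866.3 and 868.7 CPM against 195.3, 196.1 and 293.6 CPM (1.92, SE 0.22). Eno2, the enolase of neurons, stood at 675.9, 644.9 and 395.4 CPM against 1978, 2530 and 2273 CPM (-1.95, SE 0.22). Gpi1, the isomerase acting on glucose 6-phosphate, stood at 839.2, 877.4 and 661.4 CPM against 2096, 2224 and 2073 CPM (-1.38, SE 0.15). Slc16a3, a lactate exporter, was likewise lower, at 19.19, 11.77 and 18.29 CPM against 70.5, 63.82 and 64.41 CPM (-1.97, SE 0.22).

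Lipid genes were mixed, with 7 of 15 marked higher and 3 lower (median 0.85). The lower count was 1 without IP replicate 1, 4, 5 or 6 and 2 without replicate 2. Cd36, a fatty acid and thrombospondin receptor, stood at 1327, 2052 and 2266 CPM against 222.5, 286.2 and 286 CPM (2.89, SE 0.27), and no ONH or ONP library held more than 33.92 CPM of it. Scd1, the desaturase that makes oleic acid, differed by 2.76 (SE 0.29). Lpl, lipoprotein lipase, was lower, at 17.21, 4.9 and 5.481 CPM against 75.14, 45.97 and 41.15 CPM (-2.53, SE 0.48).

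Matrix, receptor and channel genes held both directions as well. Of 22 basement membrane and matrix genes, 9 were marked higher and 1 lower (median 1.34), among them fibronectin (Fn1, 2.59, SE 0.25) and brevican (Bcan, 2.39, SE 0.24). Gpr37l1, an orphan receptor of astrocytes, stood at 375.8, 508.9 and 541.7 CPM against 40.61, 55.94 and 76.17 CPM (3.10, SE 0.30), while Lpar1, a receptor for lysophosphatidic acid, stood at 13.12, 6.338 and 10.04 CPM against 41.58, 30.28 and 67.06 CPM (-2.20, SE 0.38). Kcnk2, a background potassium channel, was the lowest of 19 potassium, water and pH genes (-2.76, SE 0.65), of which 6 were marked higher and 2 lower. Further named genes with large differences were the cytokine receptor subunit Il20rb (3.86, SE 0.38), the complement-like secreted protein C1ql4 (3.58, SE 0.52), the transcription factor Tfcp2l1 (3.48, SE 0.40) and the tight junction protein Cldn3 (3.44, SE 0.34). None of these 4 exceeded 77.53 CPM in any retinal IP library.

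Markers of other glia and of connective tissue showed which list members carried a list. Of 6 Schwann cell genes tested, 3 were marked higher, namely S100b, the myelin protein gene Pmp22 at 380.9, 417.8 and 451.2 CPM against 89.56, 83.88 and 106.5 CPM (2.21, SE 0.18) and the cadherin Cdh19 (2.55, SE 0.37), while 4 of the 10 listed did not pass the count filter. Oligodendrocyte genes had 1 of 8 marked, Cnp, a myelin enzyme, at 81.74, 74.52 and 83.03 CPM against 32.64, 48.25 and 47.2 CPM (0.95, SE 0.21), far under the 2268 to 8525 CPM of the optic nerve libraries. Igfbp2, a carrier of insulin-like growth factors, differed by 2.56 (SE 0.28) in a fibroblast and meningeal list with 3 of 7 marked higher and 1 lower. The part of these cells in the differences was not tested.

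**Figure D4:**
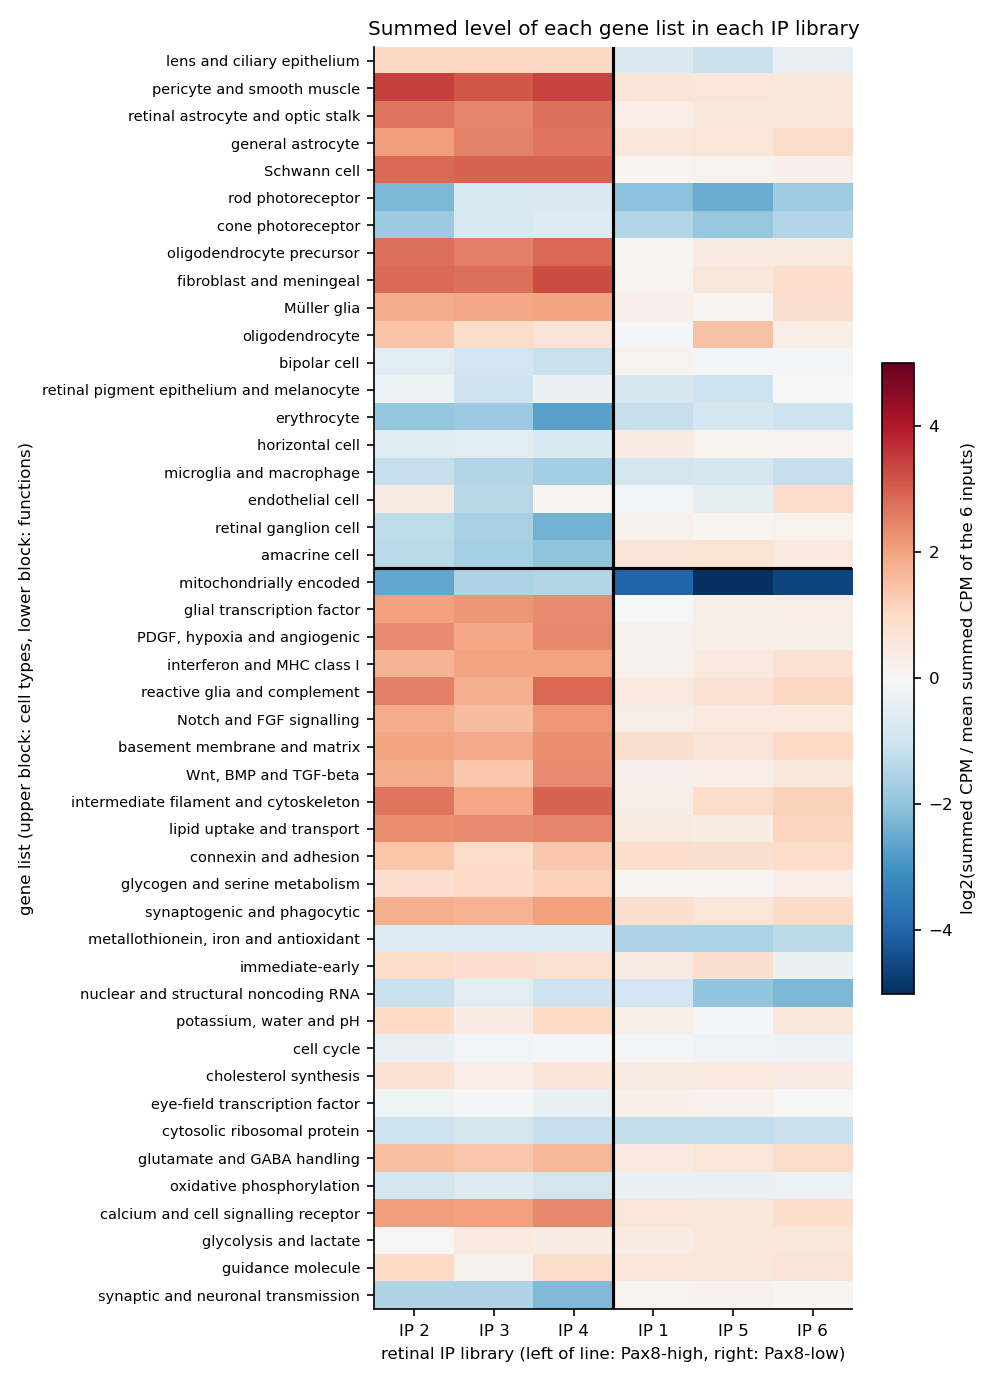
Summed CPM of each of 46 gene lists in each retinal IP library, as log2 of its ratio to the mean of the 6 inputs, with Pax8-high libraries left of the line and cell type lists above the horizontal line. The ganglion cell and amacrine sums stand under the mean of the inputs in the 3 Pax8-high libraries and near or above that mean in the 3 Pax8-low libraries.

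Transcripts encoded by the mitochondrial genome were higher in the Pax8-high libraries. Of 15, 14 were marked higher (median 2.87). The gene mt-Atp6, a subunit of the ATP synthase, stood at 32.97, 73.13 and 96.65 CPM against 12.38, 4.738 and 7.889 CPM (3.09, SE 0.50), and the inputs at 86.22 to 640.6 CPM. The ribosomal RNA mt-Rnr1 differed by 3.03 (SE 0.42) and the nuclear noncoding RNA Malat1 by 2.35 (SE 0.54), with inputs of 276.1 to 1510 CPM. For these 3 RNAs the mean of the Pax8-high libraries lay between the mean of the Pax8-low libraries and that of the inputs. Oxidative phosphorylation subunits encoded in the nucleus went the other way, with 7 of 25 marked lower and 0 higher (median -0.32). That count was 12 without IP replicate 3 and 1 or 2 without any other library. An example is Cox5a at 74.89, 108 and 76.89 CPM against 172.4, 169.4 and 183.3 CPM (-0.96, SE 0.20). Cytosolic ribosomal protein genes hardly separated the sets, with 3 of 20 marked higher (median 0.11) and none without IP replicate 1, 3, 4 or 5, and the largest of these differences was 0.62 (SE 0.17) in Rps14.

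The 6 inputs served as a common reference for both sets, which therefore share them, and the values are set side by side. In a fit of the 12 retinal libraries, 1361 of 16721 genes were marked higher (8.14%) and 602 lower (3.60%) in the Pax8-high libraries than in the inputs. In the Pax8-low libraries edgeR marked 0 higher and 0 lower, with 491 and 1090 at an unadjusted p under 0.05, and DESeq2 marked 10 and 307. Since the libraries were chosen on Pax8, these counts are descriptive. A count of 0 does not show that the Pax8-low libraries and the inputs were alike. On simulated data, the comparison of the Pax8-low libraries with the inputs called 0 of 100 genes changed 2-fold and 17 of 100 changed 4-fold.

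The astrocyte list had a median log2 fold change over input of 2.47 in the Pax8-high and 0.61 in the Pax8-low libraries. For S100b these values were 2.73 (SE 0.53) and -0.35 (SE 0.56), for Gfap 3.25 (SE 0.69) and 1.18 (SE 0.68), for Angpt4 4.44 (SE 0.40) and 1.42 (SE 0.39), and for Sox9 3.52 (SE 0.40) and 0.95 (SE 0.40). The estimates of the Pax8-low libraries were thus above the inputs for Angpt4, Gfap and Sox9, but not for S100b.

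Ganglion cell genes had a median of -1.41 in the Pax8-high and 0.28 in the Pax8-low libraries, and amacrine genes -1.44 and 0.40. For Uchl1 the values were -1.78 (SE 0.26) and 0.28 (SE 0.24). Rod genes were negative in both, at -0.96 and -2.06, as were mitochondrially encoded genes at -2.01 and -4.83 and ribosomal protein genes at -1.24 and -1.22. By these medians, the astrocyte, ganglion cell and amacrine lists placed the Pax8-high set farther from the inputs than the Pax8-low set. The rod and mitochondrial medians placed it nearer. For rods this did not hold in each library. The rod sum of IP replicate 2 was 0.211 of the input mean, inside the 0.182 to 0.289 of the Pax8-low libraries. The inputs themselves summed from 1716 to 17831 CPM in rod genes.

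The inputs offered the one comparison that the rule had not used. Input replicates 2, 3 and 4 were tested against inputs 1, 5 and 6, the numbers of the 2 IP sets. edgeR called 0 of 15172 genes higher and 0 lower, with 207 and 58 at an unadjusted p under 0.05, and DESeq2 called 16 and 1. A count of 0 here does not show that the inputs were alike. The astrocyte, ganglion cell and amacrine lists had medians of -0.20, -0.40 and -0.34. For Gfap the difference was -1.03 (SE 0.95) and for S100b 1.11 (SE 0.79), each with a wide error. For Sox9 it was -0.12 (SE 0.59) and for Pdgfra 0.03 (SE 0.57), against 2.57 and 2.67 in the IP libraries. Other genes had estimates in the same direction as in the IP libraries, none of them called by edgeR. These were 3.52 (SE 1.54) for H2-Q10, 2.38 (SE 1.22) for Psmb9 and 1.90 (SE 0.98) for Cldn3. They were 1.79 (SE 0.86) for Id1, 1.54 (SE 0.76) for Id2 and -1.34 (SE 0.75) for Nptx1. All of these but Nptx1 were highest in input 2. In inputs 3 and 4 against 5 and 6 alone, the estimates were 1.34 for H2-Q10, -0.43 for Psmb9 and -0.10 for Cldn3. There they were -0.05 for Id1, 0.03 for Id2 and -1.29 for Nptx1.

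Some lists did have positive medians among the inputs, at 2.81 for erythrocyte, 2.25 for rod, 1.92 for cone, 1.64 for endothelial, 1.02 for bipolar cell and 1.01 for microglia genes. The rod list summed to 3098, 10803 and 17831 CPM in inputs 2, 3 and 4 and to 2203, 1716 and 3624 CPM in inputs 1, 5 and 6. Inputs 3 and 4 stood apart from the other 4, as IP replicates 3 and 4 did in the same list. Inputs 1 and 2 had the highest mitochondrial sums. Without both of them, edgeR called 92 of 15730 genes higher (0.585%) and 50 lower (0.318%) in inputs 3 and 4 than in 5 and 6, with 2 of 16 rod genes and 3 of 12 cone genes called higher and a rod median of 2.45. Of the other lists with positive medians, cone genes had 1.96 and endothelial genes 1.32 in that fit. Erythrocyte and bipolar cell genes had 0.58 each and microglia genes -0.14. The astrocyte list had a median of -0.38 in that fit, and 4 of the neuronal genes named here were called lower by edgeR. The log2 differences were -1.29 for Nptx1 (adjusted p = 0.023), -0.84 for Chrnb3 and -0.73 for Nefm (adjusted p = 0.0369 for each) and -0.51 for Calb2 (adjusted p = 0.0445). Of the 19 ganglion cell genes, 1 was called higher and 2 lower. Whether the numbers tie an IP library to an input is not given by the labels.

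**Figure D5:**
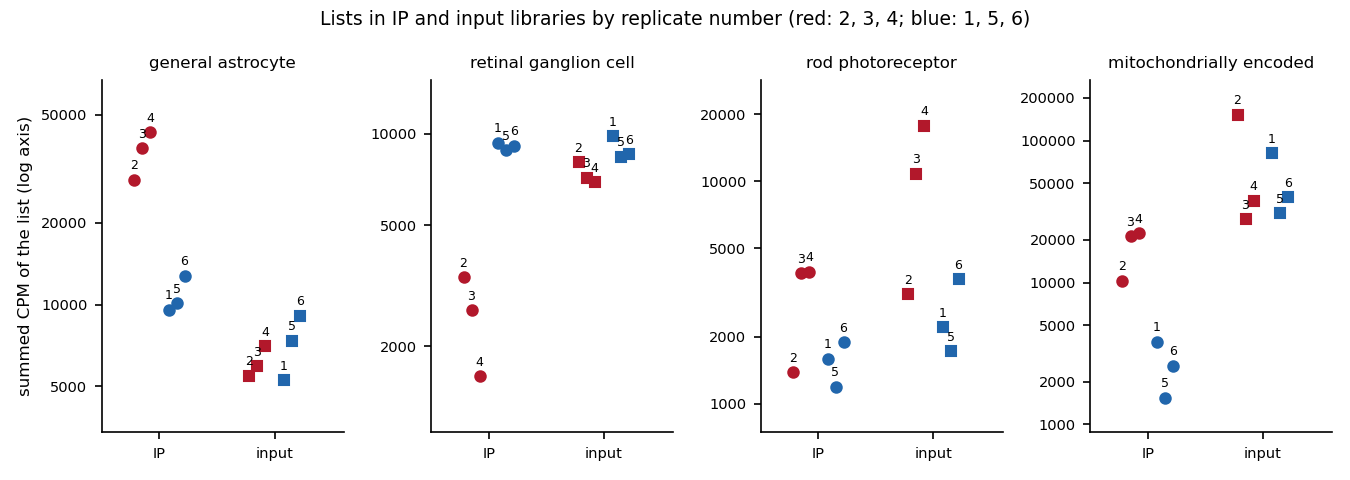
Summed CPM (log axis) of 4 gene lists in the retinal IP libraries (circles) and inputs (squares), with replicate numbers beside the points, red for 2, 3 and 4 and blue for 1, 5 and 6. The astrocyte and ganglion cell lists part the numbers widely among the IP libraries and little among the inputs, and numbers 3 and 4 are highest in rods on both sides.

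The genes that tracked Pax8 most closely over the 6 IP libraries, by Pearson's r of log2(CPM + 1), were B2m and Gfpt2, the first enzyme of the hexosamine pathway, followed by Vmac, a vimentin-associated protein, the amino acid transporter Slc7a7, the adaptor Shc1, malic enzyme Me1, the sulphate transporter Slc13a4 and Angpt2. Their r lay between 0.998 and 1.00, where the 6 points share their library and fall in 2 clusters, so r mainly repeats the gap between the sets. Gfpt2 stood at 130.8, 140.5 and 167.4 CPM against 17.34, 21.78 and 20.13 CPM (2.94, SE 0.21), and Me1 at 242, 251.8 and 265.9 CPM against 87.2, 99.26 and 93.18 CPM (1.49, SE 0.15). The lowest r, from -0.997 to -0.995, belonged to Pomc, the kinase-like Nrbp1, Cmtm8 and the dynein regulator Ndel1. Nrbp1 stood at 164.5, 159.8 and 155.9 CPM against 292.4, 275.3 and 258.2 CPM (-0.73, SE 0.13), a small difference with little spread.

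Because Pax8 binds DNA, the promoters of the genes that separated the sets were searched for GTCACGC, the core that the paired domains of Pax2 and Pax8 recognise, on both strands. RefSeq promoters (build GRCm38.p6, 250 bases before to 50 after a gene's start) were matched by symbol for 11290 of the tested genes, and 4.24% of these held the 7 letters in at least 1 promoter. The share was 4.30% of 1673 matched genes marked higher and 4.39% of 1275 marked lower, and 2.09% of all 32851 single promoters held them. The 3 shares counted over genes were close to each other. The share over single promoters has another denominator, since a gene can have several, and is not comparable with them. The named genes Rax, Aqp4 and Rps14 were left out of the search for matches to show. Among the other named genes, Aldoc and the membrane-cytoskeleton linker Ezr held the 7 letters. Ezr stood at 204.9, 182.1 and 200.6 CPM against 40.25, 34.77 and 44.55 CPM (2.34, SE 0.17). The 29 bases around each match are shown 5′ to 3′ on the gene's strand to let the matches be seen in place, with the motif in capitals. For Aldoc the window is chr11:78323071-78323099, plus strand, with the match starting at base 10 after the start. For Ezr it is chr17:6782798-6782826, minus strand, with the match in reverse orientation starting at -35. A match is only a description of these letters.
Aldoc: gggaggtatctGTCACGCccccagggagt
Ezr: gccccgatcggGCGTGACtcatcttggga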

How the data were processed

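The deposited table holds estimated counts per gene that the authors obtained with Salmon 1.6.0 against mm10, per the submitters' processing notes, for 54532 genes in 26 libraries. The kit has no stated molecular identifiers, so counting errors cover reads, not molecules. Symbols were matched for 54409 genes from the supplied gene names. Estimated counts were rounded, and CPM is the count over the library total. Library totals ranged from 11164619 to 24966236 among the 12 retinal libraries. Fits used edgeR 4.0.16 in R 4.3.3 with TMM size factors, filterByExpr (minimum count 10, minimum total 15) and the quasi-likelihood F test with Benjamini-Hochberg adjustment over all genes at 0.05, without covariates. The Pax8-high and Pax8-low sets were compared on the 6 IP libraries, the inputs among themselves, and each set with the inputs in 1 fit of 12 libraries. The scripts were tested on simulated data. Alternatives were RLE size factors, no filter, DESeq2 1.42.0, a replicate block, a common fit and the omission of single libraries.

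The members and the 46 gene lists (19 for cell types, 27 for functions, 681 genes) were chosen with earlier results of these data known. Named genes were the 12 largest differences per direction whose libraries did not overlap and whose higher set averaged 10 CPM or more, up to 3 members of a list in its majority direction and 2 in the other, the 8 closest to and 4 farthest from Pax8 by correlation, and a fixed set of common markers. Some are left out of the text or not reported here. Figures were drawn with matplotlib 3.10.9.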

Additional observations from a re-analysis of the deposited data

Results flagged for a closer look

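Summed list levels, totals, genes with counts and mitochondrial shares were screened in the 6 retinal IP and the 6 input libraries, 98 groups in all, for a library standing far from the other 5. The criterion is met by chance in about 1 in 20 groups. It was met 9 times, each time in an input and never in an IP library. The criterion weighs the gap beside a library against the whole range of the 6. The IP libraries were screened with the Pax8-high and Pax8-low sets pooled. Where these sets lie apart, the gap between them widens the range, and a library far from its own set can go unflagged. The absence of a flag therefore does not show that no IP library stood apart within its set.

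Input replicate 2 met the criterion 6 times. Its microglia and macrophage genes summed to 1187 CPM where the other inputs held 250.5 to 417 CPM, and its erythrocyte genes to 1675 CPM beside 314.6 to 644.1 CPM. Retinal pigment epithelium and melanocyte genes stood at 220.3 CPM (others 41.53 to 87.38), lens and ciliary epithelium genes at 397.3 CPM (others 99.91 to 192.2) and Schwann cell genes at 599.9 CPM (others 184 to 262.7). Metallothionein, iron and antioxidant genes summed to 16870 CPM in it, against 5085 to 9326 CPM elsewhere.

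Input replicate 1 was low in oligodendrocyte genes, at 19.54 CPM beside 61.18 to 81.94 CPM, and high in nuclear and structural noncoding RNA, at 1899 CPM beside 589.7 to 1009 CPM. Input replicate 4 was highest in bipolar cell genes, at 436.8 CPM beside 349.1 to 376.9 CPM.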

How the results depend on the processing

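No gene marked in the comparison of the Pax8-high with the Pax8-low libraries changed sign under RLE size factors, no filter, DESeq2, a common fit of 12 libraries or the omission of a library. The counts of genes marked higher and lower were 347 and 282 in the common fit, of which 347 and 281 were among those reported. Omitting single IP libraries gave 1180 to 2303 higher and 773 to 2455 lower. Among the inputs DESeq2 called 16 higher and 1 lower, omission of inputs 1 and 2 gave 92 and 50, and omission of any single input 0 and 0. For the Pax8-high libraries against input, the counts were 879 and 192 in a fit of those 9 libraries, 1914 lower with DESeq2, and 614 to 1906 higher and 77 to 1356 lower with 1 library omitted. Of these, 614 and 77 came without IP replicate 4, 210 lower without IP replicate 3 and 1356 lower without input 2. For the Pax8-low libraries they were 10 higher and 307 lower with DESeq2, 23 lower without the filter, and 0 higher and 0 to 26 lower with 1 library omitted, 26 without input 2. The cause of these shifts was not tested, beyond the smaller number of libraries where some are omitted.

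Replicate numbers do not pair IP and input libraries by any label. Deviations from the group mean correlated between same-numbered libraries at 0.11, 0.06, -0.10, 0.11, 0.24 and 0.13 for numbers 1 to 6, so not every pair passed 0.1. Between libraries of different numbers they correlated at -0.22 to 0.22. With the number as a replicate block, the Pax8-high libraries against input gave 358 higher and 35 lower and the Pax8-low libraries 0 and 0. The 2 IP sets share no number, and comparing each IP library over its same-numbered input in a replicate block gave 0 and 0 by edgeR, with 706 and 553 at an unadjusted p under 0.05. In that fit 96 of 3855 marked genes changed sign. It also turned the estimates of Gngt1 to -0.28 and Pde6b to -0.23, and the medians of the rod list to -0.73, cone -1.28, pericyte -0.36, oligodendrocyte precursor -0.66 and fibroblast -0.32. For the comparison among inputs no paired analysis was possible because no 2 inputs share a number. Levels of sparse genes such as Pax2 rest on few counts.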

Other observations

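Other gene groups are given here as a description, to be read against the 14.1% of all genes tested that were marked higher and the 10.8% marked lower. Lens and ciliary epithelium genes had 5 of 8 tested members marked higher in the Pax8-high libraries and 0 lower, with a summed level of 356.8, 357.1 and 362.9 CPM against 106, 83.08 and 133.5 CPM, and 99.91 to 397.3 CPM in the inputs. The higher count was 4 to 6 with 1 IP library omitted. Notch and FGF signalling genes had 9 of 18 marked higher and 1 lower (median 1.34), and 6 to 10 higher with 1 library omitted, 6 without replicate 1, 2, 4 or 5. Guidance molecules, which steer axons and migrating cells, had 3 of 18 higher and 2 lower (median -0.83), and 1 higher without replicate 1, 4 or 5, 5 higher without replicate 3 and 4 lower without replicate 2. Cholesterol synthesis genes had 4 of 20 higher and 1 lower (median 0.19), and from 1 higher without replicate 5 or 6 to 7 without replicate 3. Of 6 cell cycle genes, 1 was marked higher and 0 lower, and 0 were higher without replicate 1, 4, 5 or 6. The shares of these last 3 groups were near those of all genes.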
